A study of Mus musculus with 20 samples.

Results

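Receptor genes that place lymphocytes in and around the B cell follicle were followed across 28192 splenic follicular T cells of 10 mice: Cxcr5, Cxcr4, S1pr2, Gpr183, Cxcr3, Cxcr6 and Ccr6. The 7 genes were chosen by name among the 13798 genes of the deposited expression table, and all 7 were measured. For each mouse, each of the 6 cell clusters named by the authors and each condition, the share of cells with the transcript and the mean level were computed, and pairs of receptors were then sought in the same cell.

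Follicles and germinal centres are laid out by gradients of chemoattractants. CXCR5 binds CXCL13 of follicular stroma and draws B cells and follicular helper T (Tfh) cells into the follicle, CXCR4 binds CXCL12 and is used to reach the germinal centre dark zone, and S1PR2 signals through the G protein subunit encoded by Gna13 to hold cells inside the germinal centre. GPR183, also called EBI2, follows an oxysterol ligand toward the outer follicle and the border with the T cell zone and is turned down when cells settle in germinal centres. CXCR3 answers the interferon-induced chemokines CXCL9 and CXCL10, CXCR6 answers CXCL16, and CCR6 answers CCL20, and these receptors are best known from effector, tissue-homing and regulatory T cells.

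The mice were irradiated C57BL/6 recipients aged 8 to 10 weeks, reconstituted with bone marrow and analysed at week 10. The 5 WT chimeras received wild type marrow only and were immunized with NP-OVA in alum at week 6 (mice 14, 11, 12, 23 and 36; 3 labelled male and 2 female). The 5 mixed 564Igi chimeras received wild type marrow mixed with marrow of 564Igi mice, whose B cells carry knock-in heavy and light chains that bind the body's own ribonuclear complexes, and were not immunized (mice 17, 24, 13, 21 and 34; 2 labelled male and 3 female). The paper's methods also describe a later NP-OVA booster injection for the immunized chimeras. The genotype, the immunization with its booster and the separate normalization of each condition by the authors therefore cannot be told apart. In both groups CD4-enriched spleen cells were sorted for CXCR5 and PD-1 on CD3+ CD4+ cells of CD45.2+ and not CD45.1+ origin, so CXCR5 protein was part of the gate, and each mouse gave 1 library of 5′ single-cell RNA and T cell receptor sequences.

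WT mice gave 14965 cells and 564Igi mice 13227, from 1121 to 4030 per mouse, with 3424280 to 15241983 raw UMIs (unique molecules) per mouse. The median raw UMI count per cell was 2937.5 to 3823.5 in the WT mice and 2728 to 4375.5 in the 564Igi mice. Mouse 24 stood apart with the fewest cells and the lowest median depth, so results that it decides are given without it. Of 27695 distinct cell barcodes, 491 (1.77%) occurred in more than 1 library. Cd3e was found in 99.4% of cells. The authors' cluster names matched their defining genes: Foxp3 was found in 56.7% of regulatory (Tfr) cells, Sostdc1 in 100% of Sostdc1 Tfh cells, Sox4 in 70.1% of central memory Tfh cells, Ccl5 and Gzmk in 80.6% and 86.7% of effector Tfh cells, and Isg15 and Ifit1 in 97.9% and 88.7% of interferon stimulated Tfh cells. Activated Tfh cells had the highest share with S100a6 (75.8%), but Tnfsf8, the other gene given for them, was highest in Sostdc1 Tfh cells (76.5%). B cells also use most of these receptors. Of 9 measured B cell markers, Ms4a1 was found in 0.0568% of cells and Cd79a in 0.259%, while Cd22 (4.43%), Cd79b (3.56%) and Fcmr (2.95%) were found in more, and 3311 cells (11.7%) held at least 1 of the 9. The 9 B cell markers summed to 41.1 to 47.9 CPM in the WT mice and 31.1 to 50.1 CPM in the 564Igi mice. No cell type that should lack all 7 receptors was in the sort.

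In the GRCm38 annotation, Cxcr5 lies at chr9:44511787-44561877 on the reverse strand, Cxcr4 at chr1:128588199-128592293 (reverse), S1pr2 at chr9:20962361-20976781 (reverse), Gpr183 at chr14:121952551-121965195 (reverse), Cxcr3 at chrX:101731535-101734269 (reverse), Cxcr6 at chr9:123806475-123811760 (forward) and Ccr6 at chr17:8236043-8257141 (forward). All 7 are protein-coding. Cxcr5 shares exon sequence with Bcl9l on the opposite strand, Gpr183 lies over Ubac2 and Cxcr6 over Fyco1 without shared exons. Bcl9l was found in 5.26% of cells on average in WT mice and 4.58% in 564Igi mice, and its part in the Cxcr5 values was not tested.

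The promoters of S1pr2 and Ccr6 are shown because S1pr2 followed the mean level of a transcription factor most closely (Ascl2, a basic helix-loop-helix protein, a class that binds E-boxes) and Ccr6 had the lowest p of the 7 between conditions in all cells. The motifs were chosen with these values known. Both sequences are the 250 bases before the RefSeq start (GRCm38.p6, written 5′ to 3′ on the gene's strand), S1pr2 at chr9:20976794-20977043 (reverse) and Ccr6, at the first of its 2 listed starts, at chr17:8235793-8236042 (forward). Capitals mark the letters CANNTG, the E-box, in S1pr2, and the half-site AGGTCA of ROR nuclear receptors, read on either strand, in Ccr6.
S1pr2: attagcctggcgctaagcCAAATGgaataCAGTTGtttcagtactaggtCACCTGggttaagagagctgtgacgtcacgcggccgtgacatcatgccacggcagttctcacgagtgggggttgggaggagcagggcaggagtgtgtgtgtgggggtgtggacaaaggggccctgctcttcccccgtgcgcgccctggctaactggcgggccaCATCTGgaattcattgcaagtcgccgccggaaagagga
Ccr6: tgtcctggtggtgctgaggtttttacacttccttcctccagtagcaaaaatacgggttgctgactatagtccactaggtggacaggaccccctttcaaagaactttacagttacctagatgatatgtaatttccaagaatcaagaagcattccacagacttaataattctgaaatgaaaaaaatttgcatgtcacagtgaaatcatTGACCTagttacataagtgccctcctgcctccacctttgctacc
The S1pr2 promoter held 4 E-box matches, and 6.49% of 32851 RefSeq promoters (250 bases before to 50 after the start) held 4 or more, while 72.3% held at least 1. One of its E-boxes overlaps an AGGTCA match. The Ccr6 promoter held 1 AGGTCA match, seen here as its reverse complement, and 16.3% of promoters held at least 1. The promoter of the other listed start of Ccr6 held 0. The Gpr183 promoter held no match to CTTTGA, the motif of TCF and LEF factors, which 16% of promoters held. These matches describe letters and say nothing about binding.

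The share of cells with each receptor was compared between clusters. A share also depends on transcript length and capture, so shares were compared within a receptor and not between receptors. The clusters were built from these same cells, so their order is a description without a test.

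Cxcr5 was found in 41.2% of all cells although every cell had passed a gate on CXCR5 protein. Its mean share over mice was highest in Sostdc1 Tfh (47.2%, 23.2% to 59.4%, n = 10) and activated Tfh cells (43.0%), followed by Tfr (38.4%), effector (36.7%) and interferon stimulated cells (36.7%), and lowest in central memory Tfh cells (26.8%, n = 8 mice with at least 20 cells). The ranges of all neighbours in this order overlapped. Cxcr4 ranged from 9.97% of central memory to 4.31% of interferon stimulated cells, again with overlapping neighbours, although Sostdc1 Tfh exceeded activated Tfh cells in all 10 mice.

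S1pr2 was highest in Sostdc1 Tfh cells (23.9% ± 7.96, SD, n = 10), then in activated Tfh (16.4%) and Tfr cells (10.6%), and lower in interferon stimulated (7.97%), effector (7.56%) and central memory cells (6.16%). Activated Tfh exceeded Tfr cells in all 10 mice. Gpr183 ran the other way at both ends of this order. It was found in 53.5% of central memory Tfh cells (47.6% to 60.2%, n = 8), above every mouse's share in activated Tfh cells, the next cluster (24.9%, 15.3% to 40.4%), and in 14.5% of Sostdc1 Tfh cells, the lowest.

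Cxcr3 was found in 44.7% of effector and 43.6% of interferon stimulated cells, in 38.9% of activated and 36.2% of Sostdc1 Tfh cells, then, with ranges apart from the neighbour above at each step, in 22.8% of Tfr and 9.70% of central memory cells. Cxcr6 was highest in effector Tfh cells (15% ± 4.36, n = 10), stood at 5.79% to 7.24% in interferon stimulated, Sostdc1 and activated cells, and was at 1.24% in Tfr cells, below every mouse's share in interferon stimulated cells. Ccr6 had its highest share in Tfr cells (4.90%, 2.26% to 8.95%), followed by interferon stimulated (3.14%) and activated Tfh cells (1.06%), and it was at 0.271% in effector cells, which is near the share of all cells with Cd79a (0.259%). The shares of Ccr6 outside Tfr cells are no higher than that of B cell markers such as Cd22. Cd79b, Fcmr and Cd22 were themselves most frequent in Tfr cells (5.61%, 5.50% and 5.23% of the pooled cells), where Ccr6 was at 5.21%. The Tfr share of Ccr6 is thus no higher than those of these markers either. Median raw UMIs per cell were 3461 in Tfr, 3471 in effector, 3547 in activated, 3741 in Sostdc1, 3893 in interferon stimulated and 4027 in central memory cells. When every cell was thinned to the lowest total of corrected counts (2804), Gpr183 was still highest in central memory (45.5%), S1pr2 and Cxcr5 in Sostdc1 (20.2% and 40.5%) and Ccr6 in Tfr cells (4.45%). This thinning evens corrected counts and not raw UMIs. Among cells of 2500 to 5000 raw UMIs the same clusters were highest. The shares there were 50.3% for Gpr183, 24.2% for S1pr2, 49.0% for Cxcr5 and 4.60% for Ccr6. The plot of receptor shares by cluster shows these orders mouse by mouse.

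**Figure D1:**
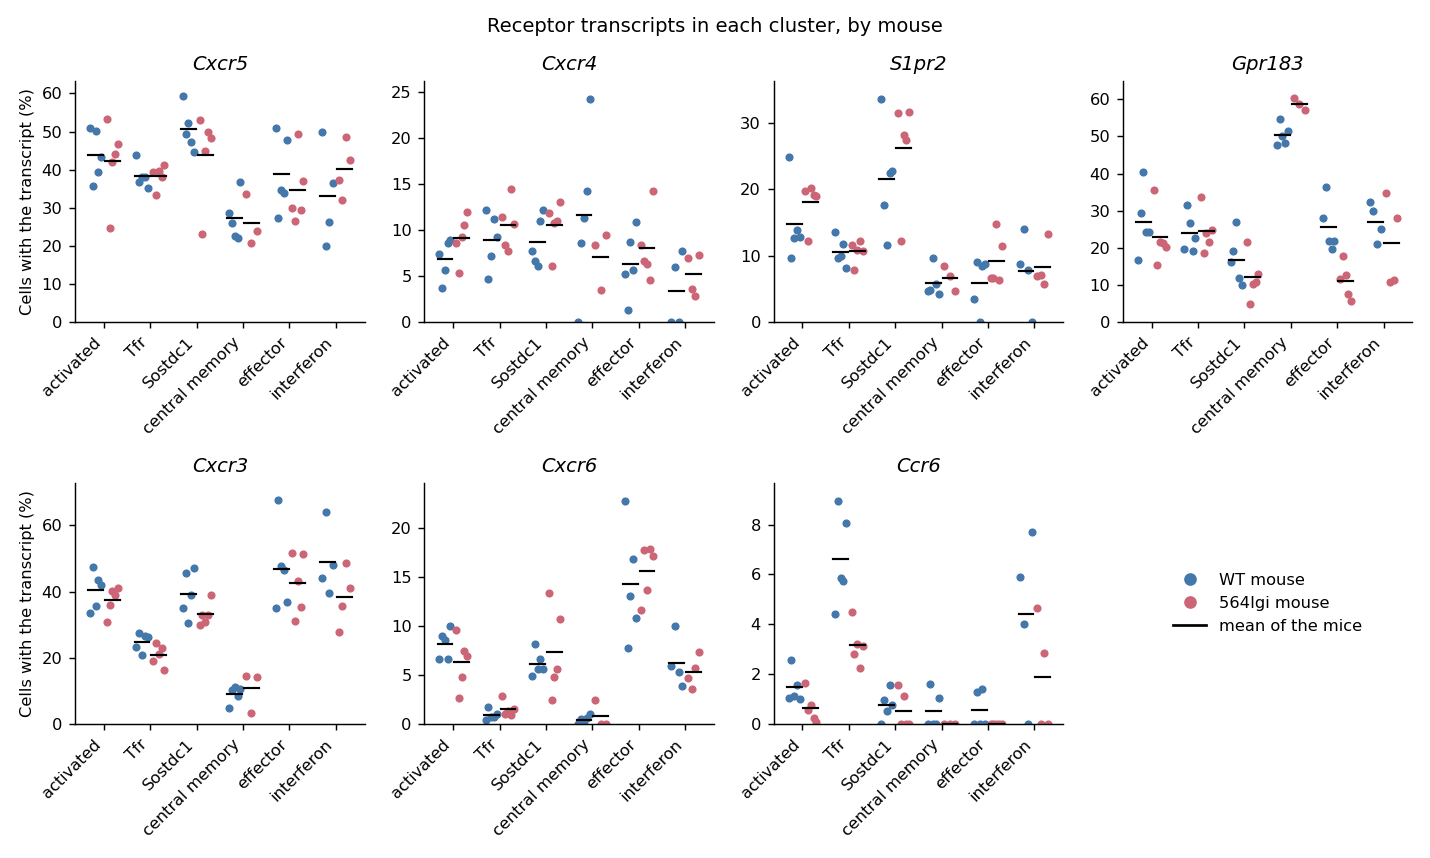
Percent of cells with at least 1 corrected count of each receptor (y axis, starting at 0, own scale per receptor) in the 6 clusters (x axis), 1 point per mouse with at least 20 cells, WT blue and 564Igi red, bars at the mean. Gpr183 peaks in central memory cells (53.5%), Cxcr6 in effector cells (15%), S1pr2 in Sostdc1 cells (23.9%) and Ccr6 in Tfr cells (4.90%).

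Most cells showed few of the 7 transcripts. None was found in 6146 cells (21.8%), 1 in 11358 (40.3%), 2 in 7724 (27.4%), 3 in 2504 (8.88%), 4 in 418, 5 in 39, 6 in 3 and all 7 in 0 cells. The commonest states were Cxcr5 alone (3984 cells) and Cxcr3 alone (3499), then Gpr183 alone (2046), Cxcr5 with Cxcr3 (1797), Cxcr5 with Gpr183 (1572) and Cxcr5 with S1pr2 (1001). In mouse 24, 33.5% of cells showed none, against 17.5% to 24.1% in the other 9 mice.

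Co-detection was measured as the odds ratio of finding both transcripts of a pair in a cell, within each mouse and within strata of cluster and depth. The strata lessen the part of a shared cluster or a deep cell, but depth still varies within a stratum. Values above 1 mean that a pair met more often than independent detection would give. The odds ratios are described over the 10 mice without a p-value.

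The germinal centre pair Cxcr5 and S1pr2 met more often than expected in every mouse, in 2169 cells against 1776 expected, with a median odds ratio of 1.65 (1.45 to 1.80). S1pr2 with Cxcr6 (median 1.80, 320 cells) and Cxcr5 with Gpr183 (1.18, 3067 cells) were also above 1 in 10 of 10 mice. Cxcr5 and S1pr2 were each also co-detected with B cell markers (odds ratios 1.40 and 1.33 for any of the 9), whose part in the pair was not tested. Cxcr4 with S1pr2 (1.35) and Gpr183 with Ccr6 (1.41) were above 1 in 9 of 10 mice.

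Cxcr3 stood on the other side. It met Cxcr5 in 3343 cells against 3801 expected (median 0.718), S1pr2 in 1131 against 1381 (0.644) and Ccr6 in 160 against 227 (0.564), each below 1 in all 10 mice. Cxcr5 with Ccr6 was also below 1 in every mouse (0.714). S1pr2 with Gpr183 (0.809), Cxcr3 with Gpr183 (0.871) and Cxcr3 with Cxcr4 (0.795) were below 1 in 9 of 10 mice. Thus 3 of 21 pairs were above 1 and 4 below 1 in every mouse. Among all genes found in at least 5% of cells, 0.761% (with Ccr6) to 6.66% (with Cxcr5) were above 1 in every mouse. Those below 1 in every mouse made up 0.536% (with Cxcr4) to 4.46% (with Cxcr3). The size of the odds ratio depended on the cells and strata used. For S1pr2 with Cxcr3 the median was 0.912 in Tfr cells alone, below 1 in 10 of 10 mice, and 0.802 without strata, below 1 in 7 of 10. Without strata Cxcr5 with Cxcr3 and Cxcr5 with Ccr6 were below 1 in 9 of 10 mice. The plot of odds ratios by pair shows the spread, which was widest for pairs that include the scarce Cxcr6 and Ccr6.

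**Figure D2:**
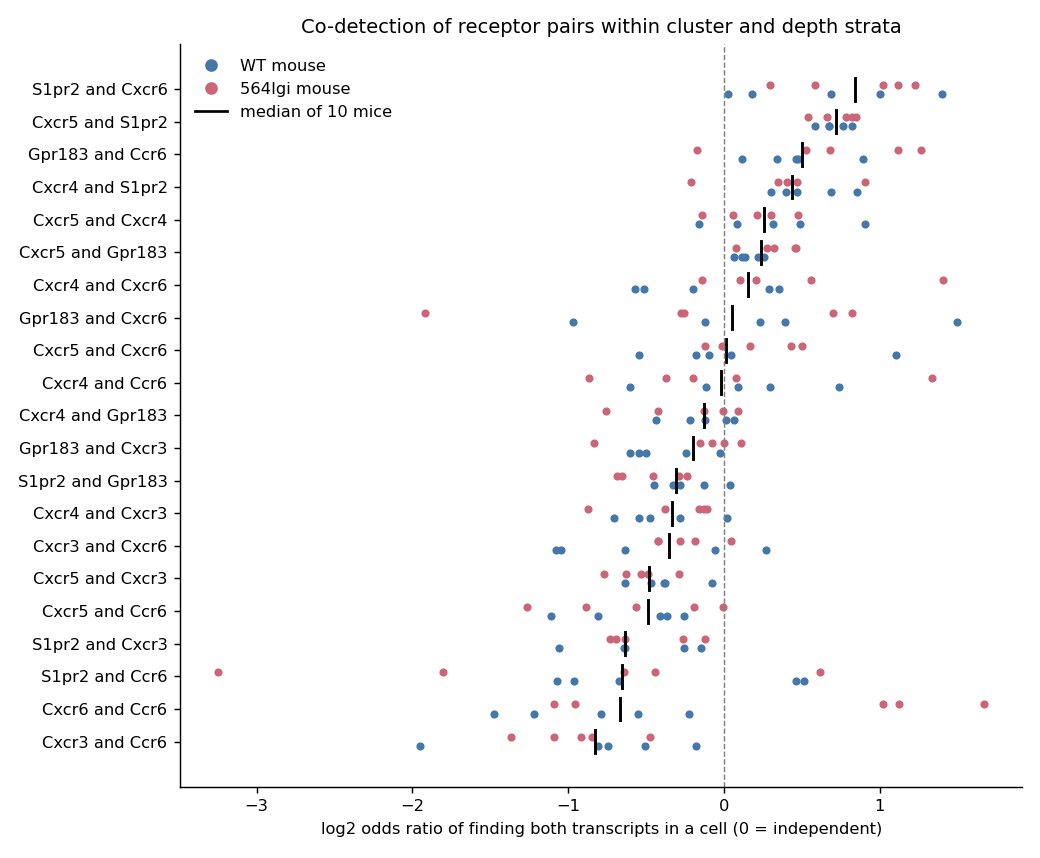
Log2 odds ratio of co-detection (x axis, 0 is independence) for the 21 receptor pairs (y axis), 1 point per mouse, WT blue and 564Igi red, black bars at the median of 10 mice. Cxcr5 and S1pr2 lie right of 0 in every mouse (odds ratios 1.45 to 1.80), and Cxcr3 with Cxcr5, S1pr2 or Ccr6 lies left of 0 in every mouse.

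Co-detection was next compared between conditions by an exact two-sided permutation test over the mice. Of 21 pairs, 0 had an unadjusted p under 0.05, and the lowest was 0.0714, for Cxcr5 with Gpr183 (mean log2 odds ratio 0.157 ± 0.0787 in WT and 0.320 ± 0.158 in 564Igi mice, SD, n = 5 each, exact permutation). Without strata this pair reached an exact permutation p of 0.00794 (0.141 against 0.349), the smallest value 5 against 5 mice can give.

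Partners among all genes were ranked next. The same odds ratio was computed for every gene found in at least 5% of cells (7092 or 7093 genes per receptor), and genes above 1 in every mouse were ranked. For Cxcr5, Krt83 (3.25) and Gm30211 (2.26) were among the 3 highest. Of 7092 genes, 472 (6.66%) were above 1 in all 10 mice for Cxcr5, so the sign alone is not rare. Among the listed transcription factors, Ascl2, which promotes Tfh differentiation, was at 1.88 and Klf2, which opposes it, at 0.513.

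For S1pr2 the highest partners were Mef2b (3.38), a transcription factor of the germinal centre, Padi4 (2.87) and Gm30211 (2.75), and among listed genes Ascl2 stood at 2.45 and Klf2 at 0.436. For Cxcr4 they were Malat1 (2.71), which is found in 99.6% of cells, Gm30211 (1.67) and Cxxc5 (1.59). For Gpr183 they were Lmo4 (2.06), Rflnb (1.99) and Ly6e (1.87), and Gpr132, another G protein-coupled receptor, was at 1.84 and Id3 at 1.52. Gpr183 met Ascl2 (0.571) and Rgs16 (0.461), a regulator that shortens G protein signals, less often than expected in every mouse.

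For Cxcr3 the highest were Nkg7 (2.66), a cytotoxic granule gene, Tbx21 (2.4), the T-bet factor of type 1 helper cells that drives Cxcr3, and Ly6a (2.26), while Klf2 was at 2.22 and Gm30211 at 0.282. Gm30211 thus stood among the first 3 partners of Cxcr5, Cxcr4 and S1pr2 and was the lowest for Cxcr3 among genes below 1 in every mouse. For Cxcr6 they were Il4 (2.79), the Tfh cytokine gene, Lmo4 (2.44) and Krt83 (2.17). For Ccr6 they were Cd74 (4.10), the invariant chain of antigen presentation, Cd96 (2.49) and Lysmd2 (2.42), and the listed factor Rora was at 1.88.

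A second measure of likeness used mean levels rather than single cells. It was the Pearson correlation over 56 means of mouse and cluster across 9968 genes, points that share mice, libraries and clusters, so it is given as a description. S1pr2 was most like Ascl2 (r = 0.90), Cbfa2t3 (0.89) and Fam43a (0.88), and Gpr183 most like Lef1 (0.88), Txk (0.86) and Lef1os1 (0.86), Lef1 being a factor of naive and memory T cells. Cxcr5 followed Tox2 (0.75), Tle5 (0.75) and Pdcd1 (0.75), which encodes the sorted marker PD-1. Ccr6 followed D830030K20Rik (0.86), Ebi3 (0.82) and Flicr (0.82), Cxcr6 followed Esm1 (0.79), Itgb2 (0.77) and Ifng (0.75), and Cxcr3 followed Bin2, Emp3 and Sh3bgrl3 (each 0.75). Cxcr4 had the weakest likeness, with Calm2 (0.61), Ahsa2 and Cetn3 (each 0.60).

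The main comparison of the design, autoimmune against immunized follicles, was made first on the share of cells with each receptor. An exact two-sided permutation test over the 10 mice was used for each of 7 receptors, without adjustment. Each p-value is the share of assignments of the mice with a mean difference at least as large, in either direction, as the observed one.

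Ccr6 was lower in 564Igi mice. It was found in 2.33%, 5.06%, 3.75%, 3.05% and 3.92% of cells in WT mice 14, 11, 12, 23 and 36, and in 2.70%, 1.25%, 1.95%, 0.962% and 1.2% in 564Igi mice 17, 24, 13, 21 and 34. The groups overlapped in WT mouse 14 and 564Igi mouse 17 only. The means were 3.62% ± 1.02 and 1.61% ± 0.711 (SD, n = 5 each), a ratio of 2.25 (exact permutation p = 0.0159). Of all genes, 2% had an exact permutation p under 0.05. Without the mice numbered 34 and 36 the difference was -1.83 percentage points and no longer passed (exact permutation p = 0.0571). The lowest exact permutation p that 4 against 4 mice can give is 0.0286. The libraries of these mice had the highest mean heat shock scores of the 10 (0.115 and 0.081). Without the 3311 cells that held any B cell marker transcript the shares were 3.36% and 1.57%.

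None of the other 6 receptors passed. Cxcr5 was found in 48.3%, 36%, 42.6%, 38.4% and 40.0% of cells in WT mice 14, 11, 12, 23 and 36 and in 46.8%, 27.4%, 41.3%, 41.9% and 44.4% in 564Igi mice 17, 24, 13, 21 and 34. The means were 41.1% and 40.4% (exact permutation p = 0.889), with mouse 24 alone far below the rest, and without it the 564Igi mean lay above WT by 2.55 points. S1pr2 was found in 19.6%, 9.99%, 10.9%, 13.2% and 11.8% of cells of the WT mice and in 16.7%, 10.4%, 16.2%, 16.8% and 17.1% of the 564Igi mice, in the same order. Of the 564Igi mice, 4 thus stood above 4 WT mice, while WT mouse 14 was highest of all and mouse 24 among the lowest (13.1% ± 3.83 against 15.4% ± 2.82, exact permutation p = 0.262). Without WT mouse 14 the difference was 3.96 points (exact permutation p = 0.0476). It did not pass without any other single mouse (exact permutation p up to 0.492).

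Gpr183 ranged from 19.2% to 31.7% (median 22.4%) in WT and from 16.8% to 34.2% (median 21.2%) in 564Igi mice, where mouse 17 was highest (exact permutation p = 0.476). Cxcr4 ranged from 4.64% to 9.91% and from 6.6% to 11.7% (means 8.04% and 9.64%, p = 0.302 by exact permutation). Cxcr3 ranged from 26.4% to 37.4% and from 26.2% to 31.9% (32.7% and 30.1%, exact permutation p = 0.294), and Cxcr6 from 3.72% to 5.51% and from 2.59% to 7.04% (4.66% and 4.76%, exact permutation p = 0.968). The plot of shares by mouse shows that the groups overlapped for every receptor.

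**Figure D3:**
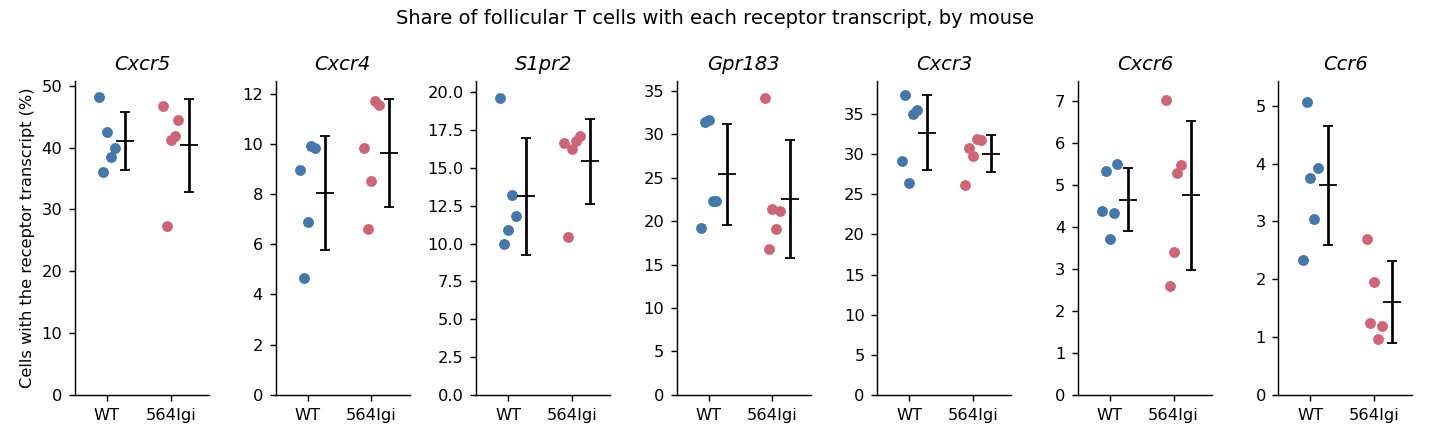
Percent of all follicular T cells with each receptor transcript (y axis, starting at 0, own scale per receptor), 1 point per mouse, WT blue and 564Igi red, black bars mean and SD (n = 5 each). Ccr6 is the receptor whose groups meet least (3.62% and 1.61%), and 564Igi mouse 24 is lowest for Cxcr5 (27.4%).

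Within clusters, 42 such tests were made and 3 had an exact permutation p under 0.05, as had 3.57% of the genes tested in the 6 clusters together. In Tfr cells, Ccr6 was found in 4.42%, 8.95%, 5.87%, 5.76% and 8.08% of cells of WT mice 14, 11, 12, 23 and 36 and in 4.51%, 2.81%, 3.23%, 2.26% and 3.13% of 564Igi mice 17, 24, 13, 21 and 34. Only mouse 17 reached the lowest WT share, and the means were 6.62% ± 1.85 and 3.19% ± 0.833 (SD, n = 5 each, exact permutation p = 0.0159). Without the mice numbered 34 and 36 the difference was -3.05 points (exact permutation p = 0.0571, with 0.0286 the lowest possible). In activated Tfh cells Ccr6 stood at 1.47% and 0.650% (exact permutation p = 0.0873), and without mouse 17 the difference passed (-1.07 points, exact permutation p = 0.00794). It did not pass without any other single mouse (exact permutation p up to 0.175). The Tfr share minus the activated share fell from 5.15 points in WT to 2.54 points in 564Igi mice (exact permutation p = 0.00794, the lowest of 28 such differences tested). For Tfr minus activated Tfh cells 2 of 7 receptors had an exact permutation p under 0.05, as had 6.5% of genes. This is a difference in points: the ratio of the 564Igi to the WT share of Ccr6 was 0.482 in Tfr and 0.443 in activated Tfh cells.

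In effector Tfh cells, Gpr183 was found in 28.1%, 36.4%, 21.7%, 19.7% and 21.7% of cells of WT mice 14, 11, 12, 23 and 36 and in 11.7%, 17.8%, 12.6%, 7.51% and 5.71% of 564Igi mice 17, 24, 13, 21 and 34. Every WT mouse stood above every 564Igi mouse, as was the case for 87 of 9637 genes in either direction (0.903%). The means were 25.5% ± 6.83 and 11.1% ± 4.72 (SD, n = 5 each, exact permutation p = 0.00794, the smallest possible). The cells are few, from 23 to 173 per mouse, and with at least 50 cells per mouse the difference was -17.5 points and the groups stayed apart (3 against 3 mice, exact permutation p = 0.1, the smallest that number allows). It was -15.2 points among cells of 2500 to 5000 raw UMIs (exact permutation p = 0.119). The drop in effector cells was not shown to differ from that in activated Tfh cells (difference -10.2 points, exact permutation p = 0.167).

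In central memory Tfh cells the groups were apart in the other direction. Gpr183 was found in 47.6%, 54.6%, 50%, 48.3% and 51.6% of cells of WT mice 14, 11, 12, 23 and 36 and in 60.2%, 58.6% and 57.1% of 564Igi mice 17, 24 and 13, the 564Igi mice with at least 20 such cells (50.4% ± 2.80 against 58.7% ± 1.55, exact permutation p = 0.0179, the smallest 5 against 3 mice can give). In this cluster 4.4% of genes had groups that did not overlap. The difference in Gpr183 was lost when cells were thinned to the lowest total of corrected counts (3.36 points, exact permutation p = 0.268). It turned around when 2 counts were required (-0.729 points).

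The mean level of every gene was then tested between conditions with limma on log2(corrected count + 1), and a gene was called at an adjusted p under 0.01 (Benjamini-Hochberg over all genes tested) with an absolute log2 difference over 0.2. Few genes of any kind were called: 1 of 9959 in all cells (0.01%), 1 in activated Tfh (0.0101%), 2 in Tfr (0.02%), 2 in Sostdc1 Tfh (0.0202%), 1 in effector Tfh (0.0104%), 1 in interferon stimulated Tfh (0.0106%) and 0 in central memory Tfh (0%). These were Gm42031, higher in 564Igi mice in each of the 6 comparisons with a call, with Ly6a in Tfr and Tpt1 in Sostdc1 Tfh cells. None of the 7 receptors was called in any of these. The WT means in all cells were 0.045 for Ccr6, 0.057 for Cxcr6, 0.085 for Cxcr4 and 0.146 for S1pr2, below the limit of 0.2, so for these a loss could not be called. With limma, 1 receptor of 7 had an unadjusted p under 0.05 in all cells, where 3.19% of genes did, 1 in activated Tfh (3.99% of genes), 2 in Tfr (3.5%), 1 of 6 tested in Sostdc1 Tfh (4.6%), 0 of 5 in central memory Tfh (7.57%), 1 of 6 in effector Tfh (5.22%) and 0 of 7 in interferon stimulated Tfh (4.2%). All 6 of these values were lower in 564Igi mice.

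Ccr6 stood 11th of 9959 genes by p in all cells, with a log2 difference of -0.026 (SE 0.0055, limma adjusted p = 0.116), and 13th of 9994 in Tfr cells (-0.047, SE 0.010, limma adjusted p = 0.0963). These differences are small on this scale because most cells hold no Ccr6 count, with means of 0.045 and 0.019 in all cells. Gpr183 stood 10th of 9637 genes in effector Tfh cells (-0.20, SE 0.044, limma adjusted p = 0.0682). On log2(mean count + 0.1) the same differences were -0.34 for Ccr6 in all cells, -0.50 for Ccr6 in Tfr cells and -0.98 for Gpr183 in effector Tfh cells, all past the limit of 0.2, with limma adjusted p of 0.0354, 0.0212 and 0.0453, above the limit of 0.01. Cxcr3 was at -0.064 (SE 0.024) in Tfr and -0.10 (SE 0.042) in Sostdc1 Tfh cells, with limma adjusted p of 0.9998 and 0.9997.

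**Figure D4:**
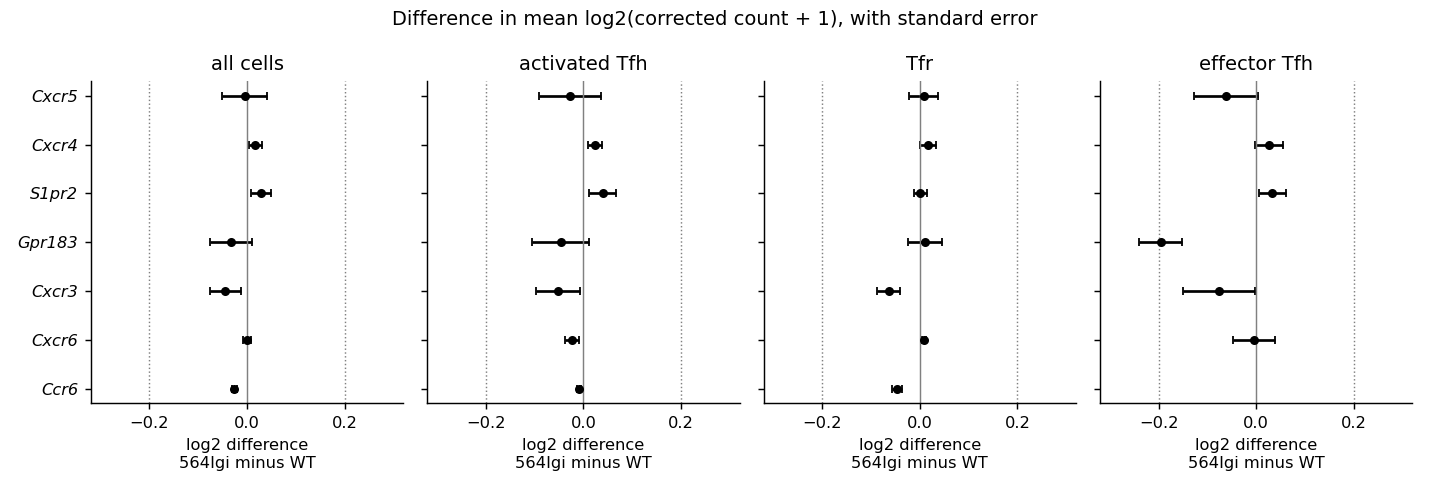
Difference 564Igi minus WT in mean log2(corrected count + 1) (x axis) for the 7 receptors (y axis) in all cells and 3 clusters, points with standard error from limma, dotted lines at the limit of 0.2 in either direction. Gpr183 in effector Tfh cells (-0.20) comes nearest to the limit. Ccr6 lies just below 0, with the smallest errors in all cells and in activated Tfh cells. Ccr6 has no point in effector cells because too few cells held it.

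A direct test of whether the difference between conditions changes between clusters called 0 of 10236 genes for Tfr minus activated Tfh (0%) and 0 of 10224 for Sostdc1 minus activated Tfh (0%). With limma at an unadjusted p under 0.05, 7.34% and 6.25% of genes passed. Among the receptors these were Ccr6 (-0.038, SE 0.0092, limma adjusted p = 0.488) and Cxcr6 (0.031, SE 0.013) for Tfr, and Cxcr6 (0.034, SE 0.014) for Sostdc1 Tfh cells.

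Clone size was a readout that the choice of genes did not use. A paired T cell receptor was read for 21405 cells (75.9%), and a clonotype was a pair of alpha and beta CDR3 sequences within a mouse, called expanded at 5 or more cells and single at 1 cell. Each mouse's expanded cells were set against its own single cells, in Tfr (132 to 722 expanded and 123 to 458 single cells per mouse) and in activated Tfh cells (227 to 814 and 140 to 354). Cells of a clonotype share their ancestry, so the mouse was the unit, and the exact two-sided test flipped the signs of the 10 mouse differences.

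Ccr6 was scarcer in expanded clonotypes of both cell types. In Tfr cells the expanded and single shares were 2.59% and 4.39% in WT mouse 14, 4.51% and 13.1% in mouse 11, 2.49% and 10.6% in mouse 12, 1.62% and 10.8% in mouse 23, and 2.25% and 12.3% in mouse 36. In 564Igi mice they were 3.87% and 7.27% in mouse 17, 5.30% and 1.63% in mouse 24, 1.52% and 4.54% in mouse 13, 0.791% and 5.99% in mouse 21, and 4.55% and 4.82% in mouse 34. All mice but 24 were lower in expanded cells, with means of 2.95% and 7.54% (n = 10, sign-flip exact p = 0.0176). A share lower in at least 9 of 10 mice was met by 6.77% of all genes in Tfr cells.

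The gap was larger in WT mice (2.69% against 10.2%) than in 564Igi mice (3.20% against 4.85%), a difference of 5.89 points between conditions (n = 5 each, exact permutation p = 0.0317). Single-clonotype Tfr cells differed between conditions (exact permutation p = 0.0397), while expanded ones did not pass (exact permutation p = 0.619). In activated Tfh cells Ccr6 was at 0.636% in expanded and 2.11% in single cells (lower in 9 of 10 mice, sign-flip exact p = 0.00586). Its share in single cells was 3.48% in WT against 0.746% in 564Igi mice (exact permutation p = 0.00794). These shares rest on few cells. The single shares in 564Igi mice were 0.372% to 1.35%, of 140 to 297 cells each. In 564Igi mice 21 and 34 the expanded share was 0%. WT mouse 11 had 7.14% in single cells, and the other WT mice had 1.58% to 3.67%. In activated Tfh cells, 9.12% of all genes were lower in at least 9 of 10 mice. The difference between conditions in this gap was lost without any of 5 mice in each cell type (exact permutation p up to 0.0635 in Tfr and 0.0873 in activated Tfh cells). It also did not pass without the mice numbered 34 and 36 (4.93 and 2.80 points, exact permutation p = 0.114 for each, with 0.0286 the lowest possible).

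Gpr183 was lower in expanded activated Tfh cells, at 21.8% against 30.7% in single cells (lower in 9 of 10 mice, sign-flip exact p = 0.00781). In Tfr cells it depended on the condition. The expanded and single shares were 14% and 23.9%, 23.6% and 36%, 23.4% and 30.0%, 15.2% and 22.5%, and 18.7% and 27.4% in WT mice 14, 11, 12, 23 and 36, lower in all 5. They were 36.5% and 29.5%, 17.4% and 17.9%, 23.6% and 24.3%, 21.5% and 23.6%, and 34.4% and 24.4% in 564Igi mice 17, 24, 13, 21 and 34, higher in mice 17 and 34 and lower in the other 3 by at most 2.06 points. The mean differences were -9.01 ± 2.31 and 2.73 ± 5.38 points (SD, n = 5 each), and every WT mouse lay below every 564Igi mouse (exact permutation p = 0.00794, the smallest possible, among 14 such differences). Groups that did not overlap in this gap were found for 1.05% of genes. This was so without each mouse in turn.

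Cxcr3 was higher in expanded Tfr cells (25.8% against 20.1%, 8 of 10 mice, sign-flip exact p = 0.0234), with a mean difference of 9.96 points in WT and 1.46 in 564Igi mice (exact permutation p = 0.0476 for the difference, which was lost without any of 7 mice). Cxcr5 was higher in expanded activated Tfh cells (46.2% against 41.0%, 8 of 10 mice, sign-flip exact p = 0.0313), which was lost without the largest clonotype of each mouse (3.26 points, sign-flip exact p = 0.133). When 1 mouse was left out in turn, it passed in 5 of 10 runs (sign-flip exact p up to 0.0625). Its mean difference was 8.27 points in WT mice (higher in 5 of 5) and 2.24 points in 564Igi mice (higher in 3 of 5, exact permutation p = 0.127 between conditions). Cxcr6 was lower in expanded activated Tfh cells (6.42% against 9%, 8 of 10 mice, sign-flip exact p = 0.0391). The gap differed between conditions at an exact permutation p under 0.05 for 3 of 7 receptors in Tfr (5.88% of genes) and 2 of 7 in activated Tfh cells (6.29% of genes). S1pr2, the receptor that holds cells in the germinal centre, was at 17.1% and 16.2% in expanded and single activated Tfh cells (higher in 5 of 10 mice, sign-flip exact p = 0.557). Its mean difference was 3.47 points in WT mice (higher in 4 of 5) and -1.69 points in 564Igi mice (lower in 4 of 5). The difference between conditions was -5.16 points (exact permutation p = 0.0556). Cxcr4 was at 8.51% and 7.30% in expanded and single activated Tfh cells (sign-flip exact p = 0.275). Its mean difference was 3.29 points in WT and -0.872 points in 564Igi mice.

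**Figure D5:**
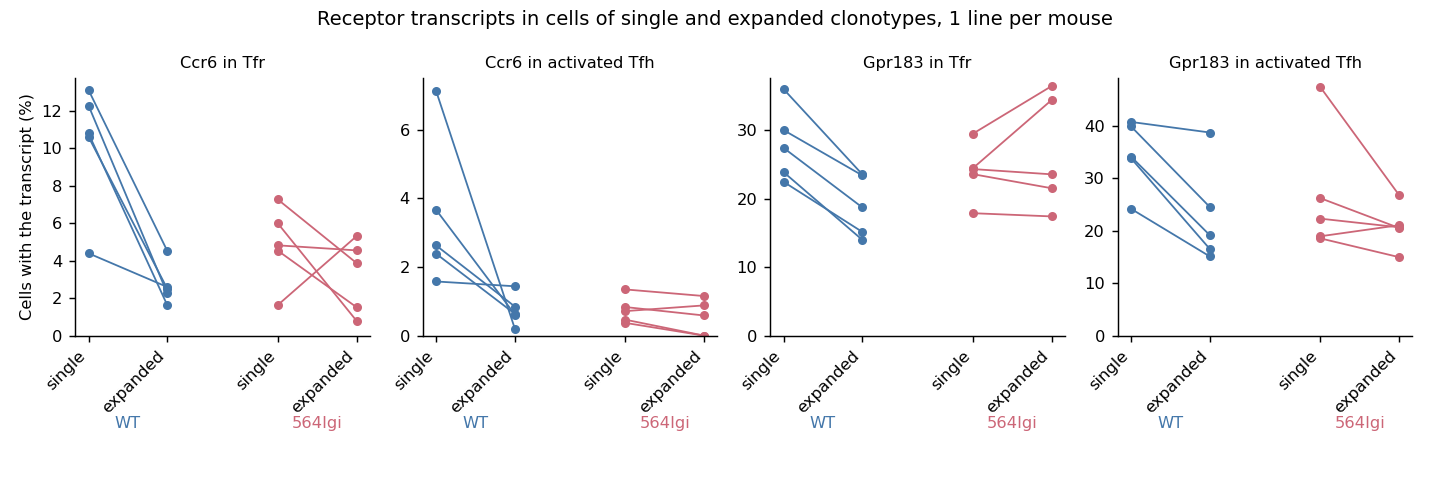
Percent of cells with Ccr6 and Gpr183 (y axis, starting at 0) in cells of single and expanded clonotypes (x axis), 1 line per mouse, WT blue and 564Igi red, in Tfr and activated Tfh cells. Ccr6 falls toward expanded Tfr cells in every mouse but 564Igi mouse 24, and in Tfr cells Gpr183 falls in all 5 WT mice but not in 564Igi mice 17 and 34.

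On mean levels, limma called 0 of 10259 genes between expanded and single clonotypes in activated Tfh (0%) and 1 of 10360 in Tfr cells (0.00965%), the class I gene H2.D1, and no receptor, while 22.7% and 18% of genes had an unadjusted p under 0.05. Against that background, 4 of 7 receptors had such a p in activated Tfh cells: Cxcr5 (0.11, SE 0.031), Gpr183 (-0.13, SE 0.036), Cxcr6 (-0.031, SE 0.011) and Ccr6 (-0.017, SE 0.0079), with limma adjusted p from 0.0568 to 0.213. In Tfr cells these were Cxcr3 (0.091, SE 0.029) and Ccr6 (-0.062, SE 0.016), with limma adjusted p of 0.129 and 0.0830.

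The wider chemoattractant system was read from 4 lists. Of 25 other chemoattractant receptors, 20 were measured and 13 tested in all cells. None was called between conditions. At an unadjusted p under 0.05, where 3.19% of all genes stood, 0 were higher and 2 lower in value: Ccr7, the receptor for T cell zone chemokines (-0.061, SE 0.019, limma adjusted p = 0.855), and Ccr4 (-0.030, SE 0.013, limma adjusted p = 0.9997). The largest other difference was S1pr1, used to leave lymphoid organs, at -0.056 (SE 0.032). The list's median was -0.020, beside -0.0018 over all genes.

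Of 18 ligands and ligand enzymes, 8 were measured and 4 tested, with a median log2 difference of 0.00035 and none at an unadjusted p under 0.05. The largest was Cxcl10, a ligand of CXCR3, at 0.015 (SE 0.017). Of 31 signalling genes downstream of the receptors, 30 were measured and tested, with a median of -0.0027 and likewise none, and the largest were Gnas (0.12, SE 0.10) and Gna13 (0.10, SE 0.053), both G protein subunits. Of 19 transcription factors tied to the receptors, 18 were tested, with a median of 0.00085, none called, and 3 at an unadjusted limma p under 0.05: Id3 was lower in 564Igi mice (-0.29, SE 0.067, adjusted p = 0.203), and Ascl2 (0.11, SE 0.031, adjusted p = 0.613) and Batf (0.12, SE 0.052, adjusted p = 0.9997) were higher. Hif1a and Maf were at 0.13 each (SE 0.093 and 0.072).

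Between expanded and single clonotypes of activated Tfh cells, the same lists held several small differences with a limma adjusted p under 0.01 but below the limit of 0.2. At a limma adjusted p under 0.05, with differences of any size, 613 of all 10259 genes passed. Rac2 (0.10, SE 0.011), Rap1a (0.089, SE 0.011), Rgs16 (0.16, SE 0.019) and Gna13 (0.13, SE 0.016), the subunit through which S1PR2 signals, were higher in expanded cells, and Lef1 (-0.081, SE 0.013) and Foxo1 (-0.061, SE 0.0090), factors of resting T cells, were lower. An unadjusted limma p under 0.05 was met by 22.7% of all genes. At that limit, 1 other chemoattractant receptor was higher and 6 lower of 13 tested. Of 30 signalling genes 6 were higher and 8 lower, and of 18 transcription factors 6 were higher and 6 lower. The medians were -0.018, -0.00024 and 0.0025, beside -0.0055 over all genes. In Tfr cells, where 18% of all genes met that limit, these counts were 0 and 3 of 14, 3 and 3 of 30, and 4 and 3 of 18.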

How the data were processed

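The authors aligned and counted 5′ single-cell libraries with Cell Ranger 4.0.0 (GRCm38, mm10) and, with Seurat 3.1.4, filtered cells, removed antigen receptor genes and applied sctransform to each condition separately. No doublet removal is named in the sources used here, and none was added. The deposited expression values are the natural log of corrected counts plus 1: after unlogging, 100% were whole within 1e-06, with 2804 to 4591 corrected counts per cell (median 3548). The deposited raw UMI and gene counts per cell, and the heat shock score per cell made by the authors, served only for depth strata and as a covariate. The authors' cluster labels and paired T cell receptor sequences were taken as deposited. Corrected values are not raw counts, so no count model was used.

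For each mouse and cluster with at least 20 cells, the share of cells with at least 1 corrected count and the mean of log2(corrected count + 1) were computed. Shares were compared by exact two-sided permutation over 252 assignments of the 10 mice (fewer where mice had too few cells). Means were tested with limma 3.58.1 (trend; R 4.3.3) over genes that 1% or more of cells held in enough mice to fill the smaller group, after a check on simulated data. Co-detection was a Mantel-Haenszel odds ratio over strata of cluster and tercile of raw UMIs, with 0.5 added to each sum. Other steps used python 3.11.15, numpy 2.4.6, pandas 2.3.3, scipy 1.17.1 and matplotlib 3.10.9. Promoters came from RefSeq (GRCm38.p6).

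The receptors and lists were chosen with earlier results of these data known. Named were the 7 receptors, up to 3 genes per list with the largest difference between conditions in all cells, the 3 highest co-detection partners and the 3 genes most alike in mean level per receptor, and called genes where at most 5 were called. Some genes that the rule names are not reported here. Genes named beyond this rule were chosen after their values were seen.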

Additional observations from a re-analysis of the deposited data

Results flagged for a closer look

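Within a condition, 69 groups of mice were checked for a mouse far from the others, and 7 held one, where chance gives about 1 in 20 for a single group. The groups share mice, and the groups of all cells contain those of the clusters. The 7 are therefore not independent and cannot be set against that rate. Of the 7, 5 were in 564Igi mouse 24, the library with the fewest cells and the lowest depth. Cxcr5 was found in 27.4% of all its cells (next lowest 41.3%) and in 23.2% of its Sostdc1 Tfh cells (next 45%). S1pr2 was found in 10.4% of all its cells (next 16.2%), in 12.2% of its activated Tfh cells (next 19%) and in 12.2% of its Sostdc1 Tfh cells (next 27.5%). The part of its depth in these values was not tested. Gpr183 in all cells of 564Igi mouse 17 (34.2%, next highest 21.4%) and S1pr2 in activated Tfh cells of WT mouse 14 (24.8%, next 13.8%) were the other ones.

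The difference between conditions itself differed between cell types for 2 of 28 differences tested by exact permutation. Both were among the 7 for Tfr minus activated Tfh cells, where 6.5% of genes had such a p. For Ccr6, the Tfr share minus the activated Tfh share was lower in 564Igi mice by 2.61 points (-2.61, exact permutation p = 0.00794), while the ratio of the 564Igi to the WT share was 0.482 in Tfr and 0.443 in activated Tfh cells. For Cxcr6 it was higher by 2.54 points (exact permutation p = 0.0476), from -7.27 points in WT to -4.73 points in 564Igi mice.

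The gap between expanded and single clonotypes differed between conditions for 5 of 14 differences tested by exact permutation, where 5.88% of genes in Tfr and 6.29% in activated Tfh cells did. In Tfr cells these were Gpr183 (11.7 points, exact permutation p = 0.00794), Ccr6 (5.89 points, exact permutation p = 0.0317) and Cxcr3 (-8.49 points, exact permutation p = 0.0476). In activated Tfh cells they were Cxcr4 (-4.16 points, exact permutation p = 0.0397) and Ccr6 (2.51 points, exact permutation p = 0.0397). Cxcr4 was higher in expanded cells of all 5 WT mice and of 2 of 5 564Igi mice.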

How the results depend on the processing

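No paired analysis was possible because the labels number each mouse on its own and no number is shared between the conditions. Leaving out cells with several alpha or beta chains was not run, since every cell with a T cell receptor had 1 of each. With 5 mice per group and few effector, central memory and interferon stimulated cells per mouse, small differences in these clusters were not detectable.

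The number of genes called between conditions changed with most settings. With the adjusted p limit moved to 0.05 and differences of any size counted it was 7 in all cells, 4 in activated Tfh, 9 in Tfr, 4 in Sostdc1 Tfh, 3 in central memory and 6 in effector Tfh, 1 for Sostdc1 minus activated Tfh, and 613 and 147 between expanded and single clonotypes of activated Tfh and Tfr cells. Without limma's trend it was 0 in all cells, activated Tfh, Tfr, Sostdc1, effector and interferon stimulated Tfh, and 9 and 6 for clonotypes in activated Tfh and Tfr cells. With a pseudocount on the mean it was 6 in all cells, 2 in activated Tfh, 10 in Tfr, 6 in central memory, 3 in effector and 3 in interferon stimulated Tfh, 1 for Tfr minus activated Tfh and 1 for Sostdc1 minus activated Tfh. With no filter on low genes it was 0 in activated Tfh, 0 in Tfr and 1 in Sostdc1 Tfh. With the filter at 5% of cells it was 2 in central memory Tfh and 3 for clonotypes in activated Tfh. It was 2 in central memory Tfh with labelled sex as a covariate, and in effector Tfh 2 with the heat shock score as a covariate, 3 with at least 50 cells per mouse and 6 without the mice numbered 34 and 36, without which it was 2 in interferon stimulated Tfh. For clonotypes, 10 cells as the limit gave 1 in activated Tfh cells. The 1 call for clonotypes in Tfr cells became 0 under the 5% filter, the pseudocount on the mean, limits of 3 or 10 cells, without the largest clonotype, without the mice numbered 34 and 36, in WT or in 564Igi mice alone, and without any single mouse (0 to 0). Without each mouse in turn the counts were 1 to 2 in all cells, 1 to 3 in activated Tfh, Tfr, Sostdc1, effector and interferon stimulated Tfh, and 0 to 9 in central memory Tfh, where 564Igi mouse 24 gave 9. The causes were not tested.

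The share of Ccr6 stayed lower in 564Igi mice without each mouse in turn (-2.34 to -1.65 points, exact permutation p from 0.0159 to 0.0318). Without the mice numbered 34 and 36 it was still lower (-1.83 points) but did not pass (exact permutation p = 0.0571, with 0.0286 the lowest possible). The mean of Ccr6 without each mouse had a limma adjusted p from 0.00876 to 0.561. The direction of Cxcr5 turned at 2 counts (0.189 points) and ranged from -2.31 to 2.55 points without each mouse, and -0.031 to 0.044 on the log2 scale. Cxcr6 turned at 2 counts (-0.026), when thinned (-0.0572), at 2500 to 5000 UMIs (-0.292) and with clusters weighted equally (-0.414), ranged from -0.470 to 0.644 points without each mouse, and on the log2 scale turned with a pseudocount on the mean (-0.0194) or equal weights (-0.0060) and ranged from -0.0067 to 0.0068. S1pr2 ranged from 1.54 to 3.96 points. Between clonotypes of Tfr cells, Cxcr5 turned without the mice numbered 34 and 36 (-0.0023) and in 564Igi mice alone (-0.0164), as did Gpr183 (0.0214). Gpr183 in central memory Tfh turned at 2 counts (-0.729 points). Of 21 pairs, 1 differed between conditions without strata, 2 with strata of cluster only, 1 in activated Tfh, 2 in Tfr, 1 when thinned and 0 to 1 without each mouse. The alternatives for single clusters and clonotype shares, and the largest clonotype, were chosen after seeing the data. Counting each result once per setting, 239 values of the main comparisons stayed the same, 83 moved, 11 turned, 1 lost and 1 gained the call. Of the others 845 stayed the same, 38 lost and 12 gained the call, 9 moved and 15 turned. A count of genes or pairs stayed the same when it was close to the main count. A difference did so when it kept its direction and side of the threshold. Shares by cluster and odds ratios did so when they lay within the SD over mice of the main value.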

Other observations

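Within clusters, several genes of the chemoattractant lists had an unadjusted limma p under 0.05 without passing the adjusted threshold. In activated Tfh cells of 564Igi mice, Ccr7 (-0.095, SE 0.027), Ccr4 (-0.033, SE 0.0098) and S1pr4 (-0.051, SE 0.024) were lower in value, and Ptger2, a prostaglandin receptor, was higher (0.064, SE 0.025). The factors Ascl2 (0.15, SE 0.042), Batf (0.14, SE 0.049) and Hif1a (0.22, SE 0.10) were higher in value there and Id3 lower (-0.28, SE 0.090). Limma adjusted p for these were 0.825 or more. Id3 in Tfr cells came nearest to passing (-0.25, SE 0.051, limma adjusted p = 0.0757). Between expanded and single clonotypes of Tfr cells, Cxcl10, a ligand of CXCR3, was at 0.056 (SE 0.013, limma adjusted p = 0.0565) and the factor Maf at 0.10 (SE 0.016, limma adjusted p = 0.0278), both below the limit of 0.2.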
